A study of Mus musculus with 17 samples.

Results

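The basement membrane genes of cultured mouse lung fibroblasts were described in 10 transcripts: the type IV collagen chains Col4a1 and Col4a2, the laminin chains Lama2, Lama4, Lamb1 and Lamc1, the nidogens Nid1 and Nid2, the perlecan gene Hspg2, and Pxdn, which encodes peroxidasin. They were taken by gene name from a matrix of 55421 genes, and all 10 were found and were among the 10481 genes with more than 10 CPM (counts scaled to library size) in at least 2 samples. The libraries were total RNA-Seq of passage 1 lung fibroblasts, 1 library per mouse, from Ephb4 control mice given PBS (n = 4) or bleomycin (n = 4) and Ephb4 CKO mice given PBS (n = 5) or bleomycin (n = 4). All 17 mice carried homozygous floxed Ephb4 and a tamoxifen-inducible Cre driven by the Col1a2 promoter, which is active in Col1a2-expressing cells and not in fibroblasts alone. At 4 weeks of age the CKO mice were injected with 4-hydroxytamoxifen (5 days at 1 mg/day) and the controls with corn oil, so that the genotype comparison is also one of 4-hydroxytamoxifen with its vehicle. Bleomycin (1.2 U/kg) or PBS was instilled at 6 weeks and lungs were taken on day 14. Ephb4 encodes a receptor tyrosine kinase for ephrin-B2, and bleomycin is a DNA-damaging drug used to induce lung fibrosis in mice.

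Basement membranes are thin sheets of matrix under epithelia and endothelia and around muscle cells. Laminin trimers, made of an alpha, a beta and a gamma chain, assemble at the cell surface, and type IV collagen forms a second network that nidogens and perlecan link to the laminin. The collagen IV trimer made of Col4a1 and Col4a2 chains is the most widespread form, and peroxidasin is the enzyme that forms the sulfilimine bonds crosslinking collagen IV trimers to each other. In the lung this matrix lies between alveolar epithelium and capillaries, and fibroblasts, endothelial and epithelial cells can each make parts of it.

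Several properties of the libraries bear on every value. Total counts ranged from 66540022 to 120554468 per library. Ephb4, the targeted gene, measured 13.1 to 65.1 CPM in Ephb4 control bleomycin libraries and 4.93 to 14.0 CPM in Ephb4 CKO bleomycin libraries, so that the ranges overlapped (log2 fold change of -2.00, edgeR adjusted p = 0.220), and 2.32 to 33.4 CPM against 4.01 to 23.6 CPM after PBS. The fibroblast label was checked against 14 fibroblast markers: their summed level was 46.9 to 8076 CPM in control PBS, 7457 to 14214 CPM in control bleomycin, 96.6 to 2427 CPM in CKO PBS and 78.6 to 2455 CPM in CKO bleomycin libraries. The 19 macrophage markers summed to 10458 to 46068, 1346 to 20954, 24371 to 42805 and 23956 to 43874 CPM in the same order. As a sum, macrophage marker signal exceeded fibroblast marker signal in every library except that of control bleomycin mouse 1. Much of that sum was Lyz2, with a mean of 10398 CPM in control bleomycin libraries, and sums do not give shares of cells. By mean log2 CPM of the markers kept, fibroblast markers stood higher in control bleomycin mice 1, 2 and 4 and in control PBS mouse 3. The values were 8.26 against 4.04, 8.45 against 7.94, 8.15 against 7.49 and 7.41 against 6.97. No marker of either list was below 1 CPM in every library. In 3 libraries (control bleomycin mouse 2, CKO bleomycin mice 1 and 2) sex-linked genes went against the recorded sex. In bulk RNA, fewer cells of a type and less RNA per cell cannot be told apart.

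Of the 10 genes, 7 had an entry among RefSeq promoters of GRCm38.p6. Sequences are shown for 3 places, the shared start of the collagen IV pair and the windows before Pxdn and Lama2. None of them was related to expression by a test. Col4a1 (chromosome 8, 11198423 to 11312826, minus strand) and Col4a2 (chromosome 8, 11312805 to 11449287, plus strand) are neighbours transcribed away from each other, and their annotated first exons overlap by 22 bases, at chr8:11312805-11312826, read here on the plus strand.
Col4a1 and Col4a2 overlap: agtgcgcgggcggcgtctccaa
The 250 bases before the Pxdn start site (chr12:29937786-29938035, plus strand) hold no annotated exon of GENCODE M21, and lie within the gene's annotated span (29937608 to 30017658). Capitals mark matches, on either strand, to CCAAT (37.4% of all 32851 promoters hold it within 300 bases) and GGGCGG (35.7%).
Pxdn: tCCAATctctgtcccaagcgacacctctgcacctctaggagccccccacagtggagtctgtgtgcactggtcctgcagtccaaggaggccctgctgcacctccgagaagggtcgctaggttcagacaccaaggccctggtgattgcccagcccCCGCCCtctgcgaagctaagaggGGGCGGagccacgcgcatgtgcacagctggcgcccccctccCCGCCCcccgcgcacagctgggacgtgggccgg
The window before Lama2 (chr10:27616943-27617192, minus strand), whose gene spans 26980036 to 27619758 on chromosome 10, also holds no annotated exon and shows no capitals.
Lama2: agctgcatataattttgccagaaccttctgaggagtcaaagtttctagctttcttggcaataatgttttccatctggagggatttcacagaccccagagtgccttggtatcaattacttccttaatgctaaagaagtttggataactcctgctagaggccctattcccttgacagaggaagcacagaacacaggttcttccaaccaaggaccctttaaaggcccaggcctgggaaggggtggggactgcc
The wider 300-base windows, which add 50 bases after the start, held 1 CCAAT and 3 GGGCGG matches in Pxdn and 1 GGGCGG match in Lama2. TATAAA (13.6% of promoters) and TGANTCA (7.81%) were matched in none of the 7 members, and CATTCC (14.7%) in Nid1 alone. GC content was 70.0% in the Pxdn window, 50.3% in the Lama2 window and 52.7% at the median of all promoters. These letters are a description of the windows and no site of binding was measured.

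Levels between genes were compared per kb of exon. Col4a1 stood highest in every group, at 84.5 ± 48.5 CPM per kb (SD, n = 4) in control bleomycin and 24.5 ± 11.9 CPM per kb (n = 4) in CKO bleomycin libraries. Col4a2 followed at 32.1 ± 14.2 and 10.0 ± 4.77 CPM per kb, and Nid1 stood next in both, at 30.4 ± 6.35 and 6.29 ± 7.56 CPM per kb. Lama2 was lowest in all 4 groups, at 1.73 ± 0.521 CPM per kb in control bleomycin and 0.0694 ± 0.0926 CPM per kb in CKO bleomycin libraries. Between these ends, Lamb1, Lamc1, Pxdn and Nid1 held the middle places in all groups and Lama4, Nid2 and Hspg2 the lower ones. In control bleomycin libraries, neighbours in the order differed by more than the larger of their SDs for Col4a1 and Col4a2, Nid1 and Lamb1, Pxdn and Lama4, and Hspg2 and Lama2. In CKO bleomycin libraries that held for Col4a1 and Col4a2 alone, and in the PBS groups for no neighbours. The middle of the order depended on the length used: per kb of the longest transcript, control bleomycin means were 36.1 for Lamb1, 34.6 for Nid1, 32.9 for Col4a2, 19.0 for Pxdn and 17.2 for Lama4, so that Lamb1 stood above Nid1 and Col4a2, and Pxdn and Lama4 lay close together. Col4a1 stayed highest and Lama2 lowest in all 4 groups by that length too. Of the laminin alpha chains, Lama4 stood above Lama2 in each group, and both stood below the beta and gamma chains Lamb1 and Lamc1. Lama2 passed 10 CPM in 5 libraries, Nid2 in 6, and Col4a1, Col4a2 and Lamc1 in all 17. The 5 of Lama2 were those of control bleomycin and that of control PBS mouse 3. Lama2 thus needed control bleomycin libraries to pass the filter.

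**Figure D1:**
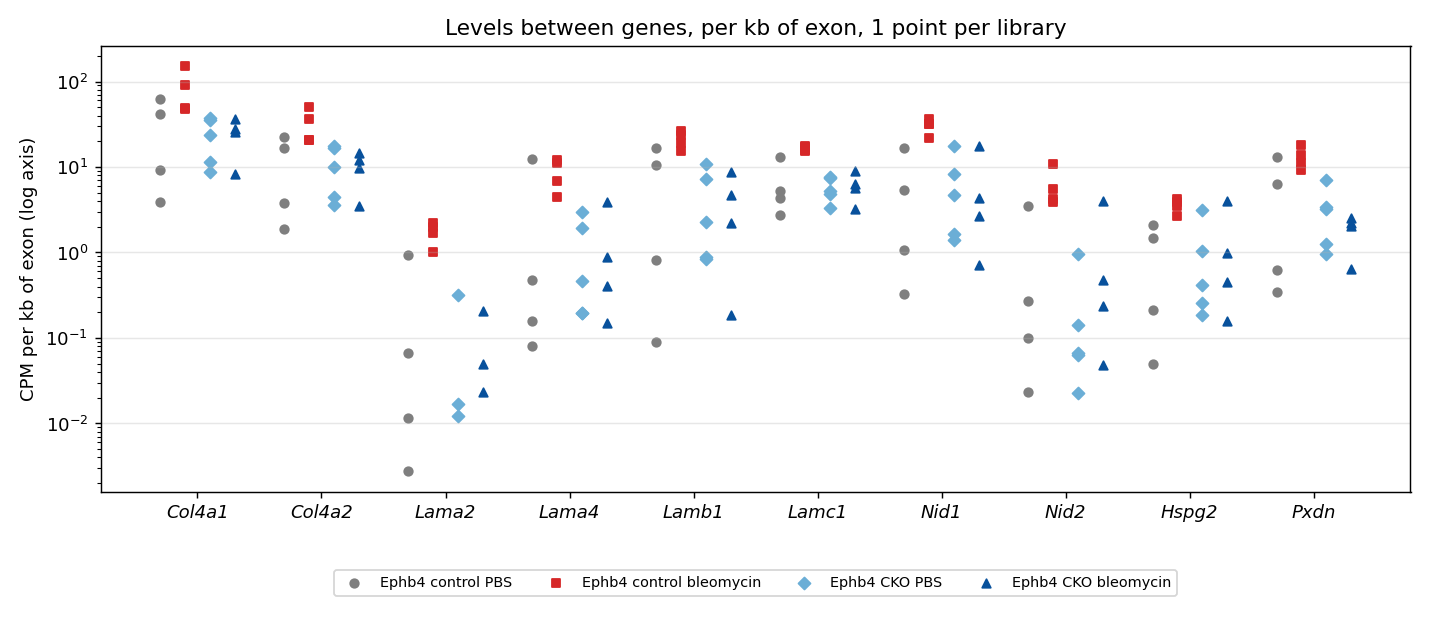
CPM per kb of exon (log axis) for each of the 10 genes, 1 point per library, coloured by group. Col4a1 is the highest and Lama2 the lowest gene in every group; 3 Lama2 values at 0 cannot be drawn on a log axis.

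Among themselves the 10 genes differed in how much they varied. The biological coefficient of variation was 0.420 for Lamc1 and 0.677 for Col4a2 but 1.26 for Nid2 and 1.73 for Lama2, at percentiles 65.5, 82.5, 97.3 and 99.5 of all genes tested. On the log2 scale the SD of each of the 10 genes was smallest in control bleomycin libraries, from 0.09 (Lamc1) to 0.79 (Col4a1). In CPM, however, Col4a1, Col4a2, Lama2 and Nid2 had their largest SD there. The SD of Lamc1 was 8.38 CPM around a mean of 136 CPM in that group. In control PBS libraries the SD of Lamc1 was 37.5 CPM around 52.1 CPM, and for the laminin chains Lama2, Lama4 and Lamb1, both nidogens, Hspg2 and Pxdn the SD exceeded the mean. The library of control PBS mouse 4 held the lowest value of 8 genes, and that of control PBS mouse 3 was high throughout.

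The comparison of Ephb4 CKO with control after bleomycin asks whether loss of the receptor altered these genes in the fibrotic setting. All 10 genes were lower in Ephb4 CKO libraries, with log2 fold changes from -4.64 (Lama2) to -1.37 (Hspg2) and a median of -2.31, beside a median of 0.01 over all 10481 genes. None passed an adjusted p of 0.05 in edgeR's quasi-likelihood test (smallest 0.196, largest 0.462), and neither did any of the 10481 genes (0%), although 2119 did so before adjustment and 399 in DESeq2. At an unadjusted p under 0.05, 5 of the 10 were lower (Col4a1, Col4a2, Lama2, Lamc1 and Pxdn), against 9.18% of all genes. The groups did not overlap for 8 of the 10, against 12.2% of all genes, the exceptions being Nid2 and Hspg2. Lama2, which is in both counts, passed the filter only with the control bleomycin libraries in which it was high. DESeq2 on the same counts gave adjusted p values of 0.0351 for Lamc1 and 0.0374 for Pxdn, 2 of the 10, against 2.42% of all genes called lower. Lamc1 and Pxdn are among the ECM genes that the study selected on these same libraries, so their direction is not independent evidence.

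Col4a1, which encodes the alpha1 chain of collagen IV, measured 1128, 672, 359 and 365 CPM in the 4 control bleomycin libraries. The CKO bleomycin libraries held 206, 274, 189 and 61.2 CPM of it. Every CKO value lay below every control value, and the controls split into a pair of high and a pair of lower libraries. The log2 fold change of Col4a1 was -1.79 with a standard error of 0.76 (edgeR adjusted p = 0.228). Col4a2, the alpha2 chain, measured 332, 241, 138 and 137 CPM in control and 79.2, 97.6, 64.6 and 23.3 CPM in CKO libraries. The libraries came in nearly the same order as for Col4a1, again without overlap. Its log2 fold change was -1.68 ± 0.73 (standard error; edgeR adjusted p = 0.228).

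Lamc1, the gamma1 chain shared by most laminin trimers, was the most even gene of the set, at 132, 144, 126 and 142 CPM in control bleomycin libraries. It measured 52.2, 73.3, 46.9 and 26.8 CPM in CKO bleomycin libraries. No CKO library reached the lowest control. The log2 fold change of Lamc1 was -1.45 ± 0.42 (edgeR adjusted p = 0.196), the smallest adjusted p of the 10. Its partner Lamb1, the beta1 chain, measured 264, 232, 152 and 188 CPM against 47.1, 86.4, 21.8 and 1.86 CPM, with 1 CKO library far below the others (log2 fold change -2.41 ± 1.28, edgeR adjusted p = 0.278).

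Of the alpha chains, Lama4, found in vessel and mesenchymal laminins, measured 146, 134, 54.1 and 82.4 CPM in control bleomycin and 10.7, 47.4, 4.84 and 1.81 CPM in CKO bleomycin libraries. The highest CKO library came close to the lowest control (log2 fold change -2.68 ± 1.45, edgeR adjusted p = 0.283). Lama2, the alpha chain of merosin, best known from muscle, measured 16.7, 27.6, 32.7 and 36.2 CPM in control bleomycin libraries. It was 0.804, 3.35, 0.381 and 0 CPM in CKO bleomycin libraries, where mouse 4 had no count, which allows up to 3. The groups stood apart and Lama2 had the largest log2 fold change of the 10, -4.64 ± 2.09 (edgeR adjusted p = 0.238). Since Lama2 passed the filter only with control bleomycin libraries, this separation is not independent of the filter. In all, 3 libraries held no count of Lama2, 2 of CKO PBS and 1 of CKO bleomycin.

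The nidogens, which bridge laminin and collagen IV, were both lower in CKO bleomycin libraries. Nid1 measured 150, 220, 219 and 255 CPM in control and 30.5, 121, 18.5 and 4.94 CPM in CKO libraries. The CKO library of mouse 2 came closest to the controls without reaching them (log2 fold change -2.27 ± 1.12, edgeR adjusted p = 0.257). Nid2 was at 21.8, 55.7, 20.1 and 28.6 CPM in control and 2.44, 20.7, 1.22 and 0.247 CPM in CKO libraries, so that CKO mouse 2 lay above the lowest control (-2.36 ± 1.51, adjusted p = 0.356, edgeR). Hspg2, which encodes the heparan sulfate proteoglycan perlecan, measured 60.7, 55.0, 38.7 and 50.3 CPM against 14.0, 56.7, 6.43 and 2.29 CPM. CKO mouse 2 again lay among the controls, and the log2 fold change of -1.37 ± 1.11 was the smallest of the 10 (edgeR adjusted p = 0.462).

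Pxdn, the collagen IV crosslinking peroxidase, measured 174, 132, 90.0 and 106 CPM in control bleomycin libraries. It was at 21.5, 24.3, 19.8 and 6.15 CPM in CKO bleomycin libraries. The highest CKO value was well below the lowest control value, and CKO mouse 2, which was high for Nid2 and Hspg2, was not high for Pxdn. The log2 fold change was -2.80 ± 0.94 (edgeR adjusted p = 0.210).

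**Figure D2:**
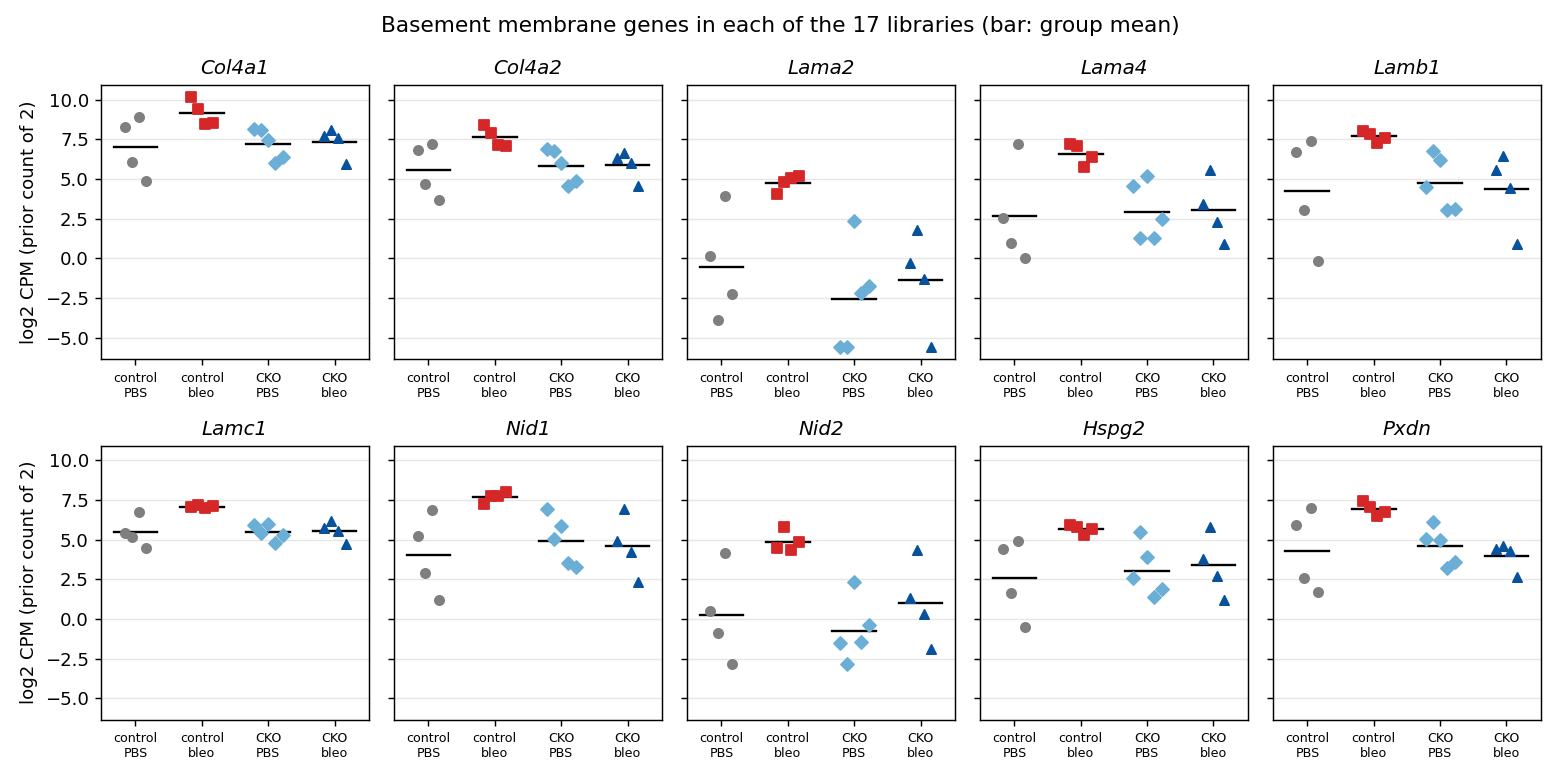
Log2 CPM (prior count of 2) of the 10 genes, 1 point per library, with a bar at each group mean. The 4 control bleomycin libraries lie close together and above the CKO bleomycin libraries, except for Nid2 and Hspg2, where 1 CKO library reaches them.

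The matrix lists its libraries as 2 blocks, each sorted by name, that divide every group, and how they relate to the sequencing runs is not stated. The direction held in both. On mean log2 CPM, all 10 genes were lower in CKO after bleomycin in block 1 (2 against 2 libraries, median difference -4.20) and in block 2 (2 against 2, median -1.56). Library titles hold a number that begins with 11 or 12, called the number series here, and the labels do not say what it stands for. Among libraries of the 12 series (2 against 4), the median difference was -1.72, again with all 10 lower. With the 3 sex-discordant libraries set aside it was -4.04 (2 against 3). That comparison and block 1 each set CKO bleomycin mice 3 and 4, of the 11 series, against controls of the 12 series. Genotype and number series cannot be told apart in them. CKO bleomycin mice 1 and 2, both sex-discordant, are the CKO libraries of block 2 and of the 12 series. All of these checks thus share 1 split of the CKO bleomycin libraries and are not independent. The library of CKO bleomycin mouse 2 moved the count of genes at unadjusted p under 0.05 most: without it, 9 of the 10 passed instead of 5. The count was 2 without control bleomycin mouse 2 or without CKO bleomycin mouse 1, 3 or 4, and 3 without control bleomycin mouse 1. No share of all genes is given for these or other fits that leave out a library. Their counts thus cannot be set against all genes.

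The comparison of bleomycin with PBS in Ephb4 control mice gives the response to the drug with the receptor present. All 10 genes were higher after bleomycin, by a median log2 fold change of 1.55, against a median of -0.06 over all genes. None passed an adjusted p of 0.05 in edgeR (smallest 0.275, for Lamc1), as was true of all genes tested (0%; 1494 at an unadjusted p under 0.05 and 166 by DESeq2), and DESeq2 called none of the 10, against 0.935% of all genes called higher (Lamc1 adjusted p = 0.0615). At an unadjusted p under 0.05 only Lamc1 passed, 1 of 10 against 6.28% of all genes. The groups did not overlap for 5 of the 10, Lama2, Lamc1, Nid1, Nid2 and Hspg2, against 5.72% of all genes. Of these, Lama2 passed the filter only with control bleomycin libraries.

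Lamc1 measured 43.1, 35.8, 107 and 22.7 CPM in control PBS libraries, all below the lowest control bleomycin library at 126 CPM (log2 fold change 1.38 ± 0.42). Col4a1 measured 309, 68.1, 469 and 29.3 CPM after PBS, and mouse 3 lay above 2 of the bleomycin libraries (1.53 ± 0.76, edgeR adjusted p = 0.370). Col4a2 was at 112, 25.4, 148 and 12.6 CPM, with the same overlap (1.51 ± 0.72, edgeR adjusted p = 0.355). Collagen IV and the gamma1 laminin chain had estimates of like size, with a smaller standard error for Lamc1.

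Nid1 was at 37.1, 7.38, 116 and 2.29 CPM after PBS, below all bleomycin libraries (2.38 ± 1.13, edgeR adjusted p = 0.351). Pxdn measured 61.4, 5.95, 128 and 3.30 CPM, a spread from lowest to highest that crossed the bleomycin range (1.34 ± 0.89, edgeR adjusted p = 0.482). Lama2 measured 1.08, 0.0450, 15.4 and 0.190 CPM, with control PBS mouse 3 close to the lowest bleomycin library (2.76 ± 1.92, edgeR adjusted p = 0.498). The estimates of the other 4 genes ran from 1.40 (Lama4) to 2.64 (Nid2) in log2 fold change. By their titles, all 4 control bleomycin libraries were of the 12 series and 3 of the 4 control PBS libraries of the 11 series. With this number series as a covariate the median log2 fold change was 0.84. Leaving out control PBS mouse 3 raised the count at unadjusted p under 0.05 to 8 of 10 and the median log2 fold change to 2.57.

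**Figure D3:**
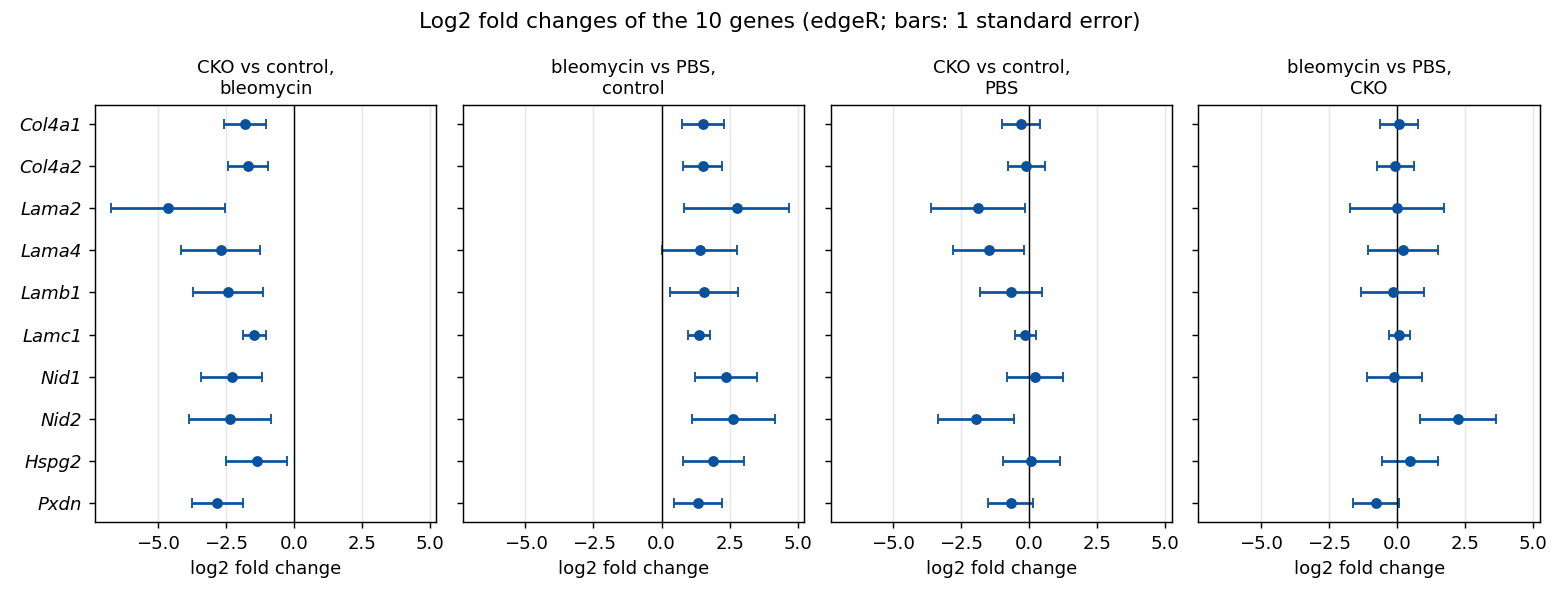
Log2 fold changes of the 10 genes from edgeR with bars of 1 standard error, 1 panel per comparison. After bleomycin all 10 points lie below 0 for Ephb4 CKO versus control, and all 10 lie above 0 for bleomycin versus PBS in control mice; the other 2 panels scatter around 0.

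After PBS, Ephb4 CKO libraries did not separate from controls. Of the 10 genes, 8 were lower and 2 (Nid1 and Hspg2) higher, with log2 fold changes from -1.96 (Nid2) to 0.20 (Nid1) and a median of -0.50. The groups overlapped for all 10, and of all 10481 genes only 3 were higher and 23 lower without overlap. No gene passed an adjusted p of 0.05 (0% of all genes), and every member's edgeR adjusted p was 1.00. Over all genes, 209 had an unadjusted p under 0.05 and 1 was called by DESeq2. None of the 10 had an unadjusted p under 0.05, against 0.563% of all genes lower and 1.43% higher. Col4a1 measured 280, 266, 178, 65.2 and 84.6 CPM in the CKO PBS libraries, inside the control PBS range. Pxdn measured 33.1, 68.2, 31.1, 9.26 and 12.2 CPM, also inside it. Directions here were not stable: without control PBS mouse 3 the median was 0.66, it was 0.25 with limma voom, and on mean log2 CPM it was 0.89 within block 2 against -0.43 within block 1.

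In Ephb4 CKO mice, bleomycin gave no clear difference from PBS. Of the estimates 6 were positive and 4 negative, with a median log2 fold change of 0.03 over the 10. Nid2 had the largest, 2.24 ± 1.40, and Pxdn the lowest, -0.78 ± 0.85. Again none passed an adjusted p of 0.05 (0% of all genes, with 101 at an unadjusted p under 0.05 and 1 by DESeq2; edgeR adjusted p = 1.00 for each member) or an unadjusted p under 0.05, against 0.248% of all genes higher and 0.716% lower. Within block 1 all 10 were lower after bleomycin (median -1.12 on mean log2 CPM), and within block 2, 9 of 10 were higher.

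The interaction tests whether the bleomycin response differed between genotypes. All 10 estimates were negative, with a median log2 value of -1.52. Lamc1 alone had an unadjusted p under 0.05 (-1.30 ± 0.57, edgeR adjusted p = 0.916), 1 of 10 against 1.57% of all genes, and no gene of the matrix passed after adjustment (0%; 363 before it and 0 by DESeq2), the members' edgeR values running from 0.916 to 0.985. Without control PBS mouse 3 the count at unadjusted p under 0.05 was 6, and with the fibroblast score as a covariate the median was -0.70. The genotype comparison after bleomycin and the bleomycin comparison in controls use the same 4 control bleomycin libraries, and their opposite signs are not separate evidence.

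Ratios of 2 genes within a library depend little on how libraries were scaled where both genes are well above the 0.05 CPM added to each, which Lama2 and Nid2 were not in every library. Col4a1 to Col4a2 was nearly constant: the log2 ratio was 1.44 ± 0.14 (SD) over all 17 libraries, from 1.21 to 1.76, and a median of 2.72 in CPM or 2.42 per kb. Over the same libraries Col4a1 itself ranged from 29.3 to 1128 CPM. Between CKO and control after bleomycin the log2 ratio differed by -0.06 (exact permutation p = 0.714). The other pairs were less even, and Lamb1 to Lamc1 ran from -4.61 to 1.34.

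Pxdn to Col4a1, the enzyme against its substrate chain, had log2 ratios of -2.70, -2.35, -2.00 and -1.78 in control bleomycin libraries. They were -3.25, -3.49, -3.25 and -3.30 in CKO bleomycin libraries. The groups did not overlap, and the mean difference was -1.12. The 2-sided exact permutation p was 0.0286, the smallest that 4 against 4 mice allow, and 0.143 after Benjamini-Hochberg adjustment over 20 tests. Against CKO PBS the CKO bleomycin ratios were lower by a mean difference of -0.69 (exact p = 0.0159, adjusted 0.143). Control PBS libraries had ratios of -2.33, -3.51, -1.88 and -3.13, so some were as low as those of CKO bleomycin. Control bleomycin differed from control PBS by 0.50 (exact p = 0.314, adjusted 0.571). CKO PBS differed from control PBS by 0.08 (exact p = 0.841, adjusted 0.841). In the same genotype comparison Lamb1 to Lamc1 differed by -1.80 and Lama4 to Lama2 by 2.22, each with an exact p of 0.0286 and an adjusted exact p of 0.143. Nid1 to Nid2 differed by 0.69 (exact p = 0.200, adjusted 0.444). Without CKO bleomycin mouse 4 the difference of Lamb1 to Lamc1 was -0.93. With 0.5 CPM added in place of 0.05, that of Lama4 to Lama2 was 1.08 and that of Nid1 to Nid2 was 0.24. Nid1 to Nid2 was also 0.40 without control bleomycin mouse 2.

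**Figure D4:**
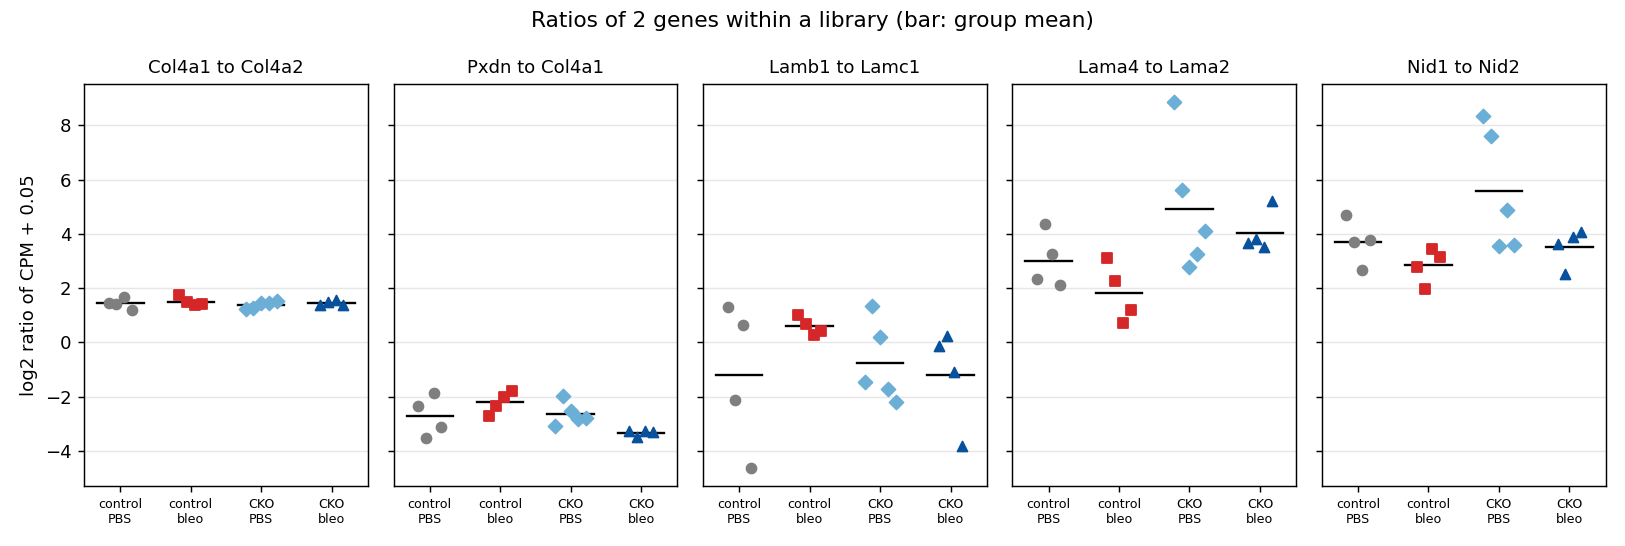
Log2 ratios of 2 genes within a library (CPM plus 0.05), 1 point per library with a bar at each group mean. Col4a1 to Col4a2 stays between 1.21 and 1.76 in all 17 libraries, while the Pxdn to Col4a1 points of CKO bleomycin lie below those of control bleomycin.

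The 10 genes ordered the libraries much as the fibroblast markers did. Ranked by the mean log2 CPM of the 10 genes, the first 7 libraries (the 4 of control bleomycin, then control PBS mouse 3, CKO bleomycin mouse 2 and CKO PBS mouse 3) were also the first 7 by fibroblast marker score, in the same order. The fibroblast score, a mean log2 CPM over 13 markers kept, was 7.67 to 8.45 in control bleomycin and 0.25 to 6.42 in CKO bleomycin libraries. The macrophage score was 4.04 to 7.94 and 8.13 to 8.68. Between these groups, 13 of 13 fibroblast markers kept were lower in CKO, with a median log2 fold change of -2.95 beside -2.31 for the 10 genes, and 19 of 19 macrophage markers were higher, with a median of 1.20. Of 12 endothelial markers 10 were lower (median -0.71), and of 9 epithelial markers kept 3 were lower (median 0.55). All 7 smooth muscle and pericyte markers kept were lower (median -2.49), as were 2 of 3 mesothelial markers kept (median -0.35). Those 7 were Acta2, Tagln, Myh11, Cnn1, Des, Actg2 and Mylk, while Rgs5, Cspg4 and Notch3 were not kept. The study used Acta2 as a marker of activated fibroblasts, so this list may not mark a cell type apart from fibroblasts. Which cells carried its signal was not tested. Summed levels in control and CKO bleomycin libraries were 106 to 294 and 102 to 149 CPM for endothelial, 198 to 1169 and 35.9 to 1334 CPM for epithelial, 3124 to 4106 and 26.9 to 2022 CPM for smooth muscle and pericyte, and 48.0 to 406 and 19.2 to 499 CPM for mesothelial markers. In controls, bleomycin against PBS gave 13 of 13 fibroblast markers higher (median 2.66). With the fibroblast score as a covariate, 7 of the 10 genes were lower in CKO after bleomycin, the median log2 fold change was -0.17, and Pxdn stood at -0.94. With the macrophage score as a covariate the median was -1.39 with all 10 lower. With the fibroblast score as a covariate the bleomycin comparison in controls had a median of -0.034, 6 of the 10 lower. The fibroblast score itself holds matrix genes, among them Col1a1, Col3a1, Fn1 and Postn. Its range in control bleomycin libraries overlapped that of no other group. Fits with this score therefore cannot tell cell makeup from matrix expression, and the part of cell makeup in either difference was not tested.

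**Figure D5:**
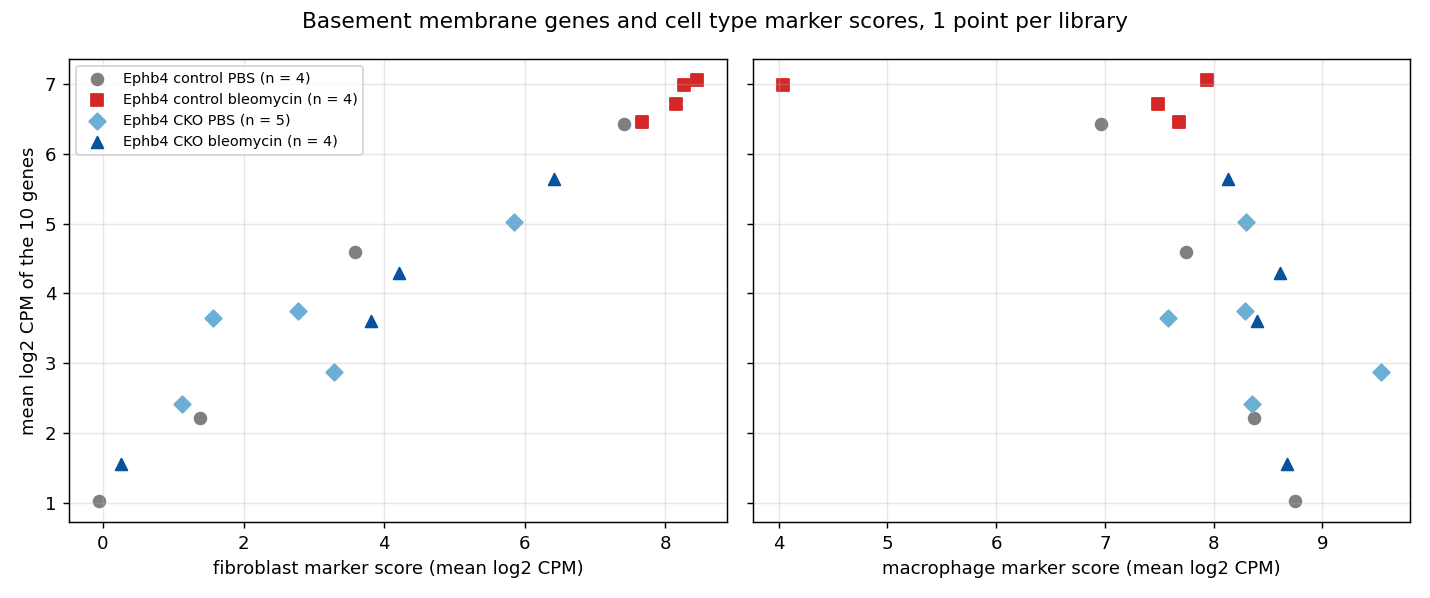
Mean log2 CPM of the 10 genes against the fibroblast score (left) and the macrophage score (right), 1 point per library, coloured by group. Libraries with high fibroblast scores are high for the 10 genes, and the control bleomycin libraries form the top of the fibroblast panel.

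Other genes of the same structures were read from fixed lists. Of 25 other basement membrane components, 17 passed the filter on low values, and in CKO against control after bleomycin 13 of these were lower and 4 higher, with a median log2 fold change of -0.84. At an unadjusted p under 0.05, 4 of the 17 were lower and none higher, against 9.18% of all genes lower. They were Col18a1 (-2.40 ± 0.91), a collagen of vessel and epithelial basement membranes, Sparc (-3.07 ± 1.20), a collagen-binding glycoprotein, Hmcn1 (-4.05 ± 1.70), encoding hemicentin-1, and Ntn4 (-1.48 ± 0.67), a netrin that binds laminin. Their edgeR adjusted p values ran from 0.218 to 0.236. The laminin chains Lama3 and Lamb3, best known from epithelia, had log2 fold changes of -0.10 and 0.63. Not kept by the filter were Col4a6, Lamc3, Fras1, Frem1, Frem2, Smoc1, Smoc2 and Papln.

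Of 12 basement membrane receptors, all kept, 9 were lower (median -0.66), and Itgb1, the common beta chain of the laminin-binding and collagen-binding integrins, alone had an unadjusted p under 0.05 (lower, edgeR adjusted p = 0.197), 1 of 12 against 9.18% of all genes. A further list held 15 genes for collagen modification and export, chosen with collagen IV in mind but not particular to it. Of these, 14 were kept and 12 were lower, with a median of -0.88. All lower as well were the 9 of the 14 with an unadjusted p under 0.05, against the same 9.18%. The 5 with the smallest p were P3h1 (-2.11 ± 0.49), P4hb (-0.92 ± 0.26) and P4ha1 (-1.23 ± 0.43), which belong to the prolyl hydroxylases, Mia3 (-0.71 ± 0.24), which loads collagen for export, and Serpinh1 (-3.21 ± 1.17), a collagen chaperone. P3h2 was not kept. Means of the fibroblast markers Col1a1, Col1a2 and Col3a1 were lower too. In CKO against control bleomycin libraries they were 54.6 against 1418, 151 against 2831 and 77.1 against 3214 CPM. The list therefore cannot set collagen IV apart from other collagens. DESeq2 called 4 of this list lower, against 2.42% of all genes, and Itgb1, P4hb, P3h1 and Loxl2 are themselves on the study's ECM list chosen from these libraries. In controls, bleomycin against PBS gave medians of 0.35, 0.27 and 0.65 for the components, receptors and modification genes.

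Across the 17 libraries the genes whose log2 CPM followed Col4a1 most closely were Col4a2 (Pearson r = 0.996), Fermt2 (0.971), Rbfox2 (0.969), Tpbg (0.965) and Frmd6 (0.963). For Pxdn they were Fermt2 (0.982), Gm21451 (0.978), Loxl2 (0.977), Zfp507 (0.973) and Cnn3 (0.964). These values are a description over libraries that share the depth and marker differences given above.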

How the data were processed

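Total RNA-Seq libraries from cultured lung fibroblasts of 17 mice were grouped by their labels. The deposited values are whole-number counts per gene, made by the authors from StringTie coverage of 75 bp reads after Cutadapt (1.18 in the submitters' processing notes) and stranded HISAT2 (2.1.0) alignment to GRCm38, without normalization, so that counts can depend on how coverage was divided between overlapping transcripts. Total counts were 66540022 to 120554468.

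Genes with more than 10 CPM (from total counts) in at least 2 samples were kept. An edgeR 4.0.16 (R 4.3.3) quasi-likelihood model had 1 mean per group, no covariate and Benjamini-Hochberg adjustment over all genes kept, with a call at an adjusted p under 0.05. TMM factors were taken over the genes kept; the fit was first run with factors over all genes, and the change to the usual order was made after those results had been seen. Standard errors are the size of the log2 fold change over the square root of F. DESeq2 1.42.0, limma 3.58.1, other factors, filters and covariates, and fits with fewer libraries were alternatives. The batch of each library, a covariate in the study, is not given in the sources used here. Scores are mean log2 CPM (prior count of 2), and ratios used CPM plus 0.05 with 2-sided exact permutation tests. The edgeR script was tested on simulated data. Gene models were GENCODE M21.

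The members, lists and tests were chosen with earlier results of these data known. All 10 members were named, list genes by an unadjusted p under 0.05 after bleomycin (at most 5 a list, smallest first), and the 5 genes most like Col4a1 and Pxdn by Pearson r. Loxl2, Lama3, Lamb3 and the printed Pxdn and Lama2 windows were chosen after values were seen.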

Additional observations from a re-analysis of the deposited data

Results flagged for a closer look

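Pxdn measured 6.15 CPM in the library of Ephb4 CKO bleomycin mouse 4, while the other 3 mice of that group measured 19.8 to 24.3 CPM; on the log2 scale the gap to the nearest mouse was a larger share of the group's range than Dixon's 95% limit allows. The low value was not particular to Pxdn: CKO bleomycin mouse 4 was lowest of its group for each of the 10 genes. It also had the lowest fibroblast score of that group, 0.25. Of 60 groups of values examined this way for the 10 genes and the 5 ratios, 1 stood out, where chance alone flags about 3.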

How the results depend on the processing

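No paired analysis was possible because the labels give no replicate numbers, which here follow accession order. Counts below are of the 10 genes. Shares of all genes at an unadjusted p under 0.05 are not given for the alternatives. The counts therefore do not show whether the 10 genes differed from others under a setting. For Ephb4 CKO against control after bleomycin, 0 passed an adjusted p of 0.05 in edgeR, 2 in DESeq2 without a covariate and 2 with the blocks of columns as a covariate (Lamc1 and Pxdn), and 10 in limma voom with a weight for each sample, a setting that called 4651 of all 10481 genes. At an unadjusted p under 0.05 there were 5, against 8 with DESeq2, 8 with limma voom, 10 with its weights, 8 with only the groups compared, 3 with the number series, 1 with the macrophage score and 0 with the fibroblast score as a covariate. The median log2 fold change of -2.31 became -0.17 with the fibroblast score and -3.84 without the sex-discordant libraries. Without them, CKO bleomycin libraries of the 11 series stood against control bleomycin libraries of the 12 series. Leaving out 1 library gave 2 to 9 genes and medians from -3.07 to -1.93.

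For bleomycin against PBS in controls, limma voom with weights passed 1 (Lamc1), and 46 of all 10481 genes, where edgeR passed 0. At an unadjusted p under 0.05 there was 1, against 5 with DESeq2, 6 with DESeq2 and the blocks, 10 with limma voom, 6 with its weights, 4 with no filter beyond 1 count, 2 with the macrophage score and 0 with the fibroblast score. It was 4 with TMM factors over all genes, the first order run. The median of 1.55 became 3.39 with limma voom and -0.034, reversed, with the fibroblast score, and was 0.84 with the number series. Leaving out 1 library gave 1 to 8 genes (8 without control PBS mouse 3) and medians from 1.16 to 2.57.

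For the genotypes after PBS, 0 genes became 1 with the fibroblast score and 0 to 2 on leaving out 1 library, with medians from -1.11 to 0.66. For bleomycin in CKO, 0 became 1 with the blocks in DESeq2, 1 with the blocks in edgeR and 2 with the fibroblast score, and the median of 0.03 became -1.53 without the sex-discordant libraries; leaving out 1 library gave 0 to 1 and medians from -0.91 to 0.32. For the interaction, 1 became 3 with limma voom, 2 with its weights, 0 with sex, 0 with the number series, 0 with the macrophage score, 0 with the fibroblast score and 2 without the sex-discordant libraries, where the median of -1.52 became -3.21 (-0.70 with the fibroblast score and -1.01 with the number series); leaving out 1 library gave 0 to 6 and medians from -2.93 to -1.16. The cause of these changes was not tested. The blocks in edgeR and TMM factors over all genes were added after seeing the data. Lama2 and Nid2 had the lowest counts and passed 10 CPM in 5 and 6 libraries.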
